A study of Mus musculus with 3 samples.

Results

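The genes described here encode the subunits of the mitochondrial respiratory chain and of ATP synthase, together with a few relatives that carry the same kind of symbol. The rule that takes them goes by symbol (Nduf, Sdh, Uqcr, Cox4 to Cox8 and Atp5 genes of the nuclear genome, and the protein genes of mitochondrial DNA) and holds no measured value. The rule took 95 of 49492 entries in the files, of which 82 are nuclear and 13 are mitochondrially encoded. By complex, the nuclear entries number 36 for complex I, 4 for complex II, 8 for complex III, 17 for complex IV and 17 for complex V.

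RNA was sequenced from the liver of CD-1 mice, an outbred stock, that had been given a sonicated suspension of zinc oxide nanoparticles orally at 25 mg per kg body weight each day for 12 or 8 weeks, or phosphate-buffered saline as the control. Each group is 1 library (12 weeks of ZnO, 8 weeks of ZnO, control), which leaves every difference without a replicate and without a test. The labels give neither the sex and age of the mice nor the number of animals behind a library, and they do not say at which week the control was taken. All values below are differences between these 3 libraries.

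The respiratory chain sits in the inner mitochondrial membrane. Complex I takes electrons from NADH and complex II from succinate, coenzyme Q carries them to complex III, cytochrome c carries them to complex IV, and complex IV hands them to oxygen. Complexes I, III and IV pump protons, and complex V (ATP synthase) uses the returning protons to make ATP. Every complex except complex II holds subunits from both genomes, so the nuclear and the mitochondrial genes have to be expressed side by side. In hepatocytes the chain supplies the ATP for gluconeogenesis and urea synthesis and reoxidises the NADH and reduced flavins of fatty acid oxidation.

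The deposited counts summed to 13263328 in the 12-week library, 14258915 in the 8-week library and 13615143 in the control. Levels are given as CPM, which are counts scaled to library size by TMM, and a count of 3 corresponded to 0.227, 0.209 and 0.221 CPM in the 12-week, 8-week and control libraries. Changes are log2 ratios, taken on CPM + 1, of a library over another, and a gene is called higher or lower at 2-fold, a cut-off of size with no test behind it. Each interval printed is an exact 95% interval of the count ratio, without the added CPM, and covers counting error only. All 11 hepatocyte markers that were found, Alb and Cyp2e1 among them, had counts in all 3 libraries. The 8-week library stood apart in skeletal muscle markers. The counts of 14 such markers, including Acta1 and Ckm, summed to 31 at 12 weeks, 3452 at 8 weeks and 33 in the control, and 6, 0 and 8 of the 14 were at 0. Markers of heart muscle summed to 0, 10 and 0 counts. Kupffer cell markers, those of the resident liver macrophage, summed to 268, 357 and 83.9 CPM, and 9 of 10 were called higher at 12 weeks and 10 of 10 at 8 weeks than in the control. The part of these cells in the results below was not tested, and every comparison between 12 weeks and control is free of the 8-week library apart from the common scaling and the filter on low values.

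Of the nuclear genes, 76 of 82 passed the filter of 1 CPM in at least 1 library, including every gene of complexes I, II, III and V and 11 of 17 of complex IV. The 6 that did not pass are Cox4i2, Cox6b2, Cox7a1, Cox7b2, Cox8b and Cox8c, which are isoforms with a restricted tissue range. Cox6a2 passed through the 8-week library alone. Summed over all 82 nuclear genes, the level was 6732 CPM at 12 weeks, 7844 CPM at 8 weeks and 7034 CPM in the control, which is 0.673%, 0.784% and 0.703% of the scaled library. Complex V held the most of this, with 2480 CPM at 12 weeks, 2991 CPM at 8 weeks and 2617 CPM in the control. Complex II held the least, with 561, 659 and 553 CPM. The 8-week library had the highest sum for each of the 5 complexes.

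The nuclear genes differed little in size and mostly in a common direction. After 8 weeks of ZnO, 60 of the 76 measured genes were above the control and 16 below it, with a median log2 ratio of 0.12 (a ratio of 1.09). Over all 14585 genes that passed the filter, 48.4% were above 0, 51.6% were below 0 and the median was -0.02. Among the 8139 of them with a mean of 10 CPM or more over the libraries, 54.5% were below 0 and the median was -0.03. At 2-fold, 1 nuclear gene (Cox6a2) was called higher and 0 lower, against a background of 4.15% of all genes higher and 2.1% lower. After 12 weeks, 25 genes were above the control and 50 below it, with a median log2 ratio of -0.09. The background there was 51% below 0 with a median of -0.01, and 54.7% below 0 with a median of -0.03 among the genes of 10 CPM or more. None of the nuclear genes was called at 2-fold, where 3.11% of all genes were higher and 1.34% lower. At 1.5-fold 0 were higher and 1 (Atp5s) was lower, against 9.28% of all genes higher and 6.22% lower.

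The 12-week library set against the 8-week library gave the most one-sided count. Here 70 of 76 nuclear genes were lower at 12 weeks and 6 were higher, with a median log2 ratio of -0.19 (a ratio of 0.876), where 50.1% of all genes were below 0, 49.9% were above 0 and the median was -0.00. The 6 were Ndufa1, Ndufa13, Ndufb3, Ndufb4, Ndufb11 and Uqcr11, with log2 ratios of at most 0.07 (Ndufb11). Ndufa1 and Ndufb3 were below 0 under DESeq2 size factors, and Uqcr11 did so under upper-quartile factors. At 2-fold, 1 gene (Cox6a2) was called lower, against 1.23% of all genes lower and 1.28% higher. None was 1.5-fold higher, against 5.41% of all genes. Of the 76 genes, 57 had their highest level at 8 weeks, 16 in the control and 3 at 12 weeks, and 47 had their lowest level at 12 weeks. Without Cox6a2, which passed the filter through the 8-week library alone, 56 of 75 were highest at 8 weeks. The order of the libraries was not counted over all genes, so no background stands beside these numbers. The comparisons share libraries, so these counts are not independent of each other. In bulk liver, fewer cells of a type and less RNA per cell cannot be told apart.

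**Figure D1:**
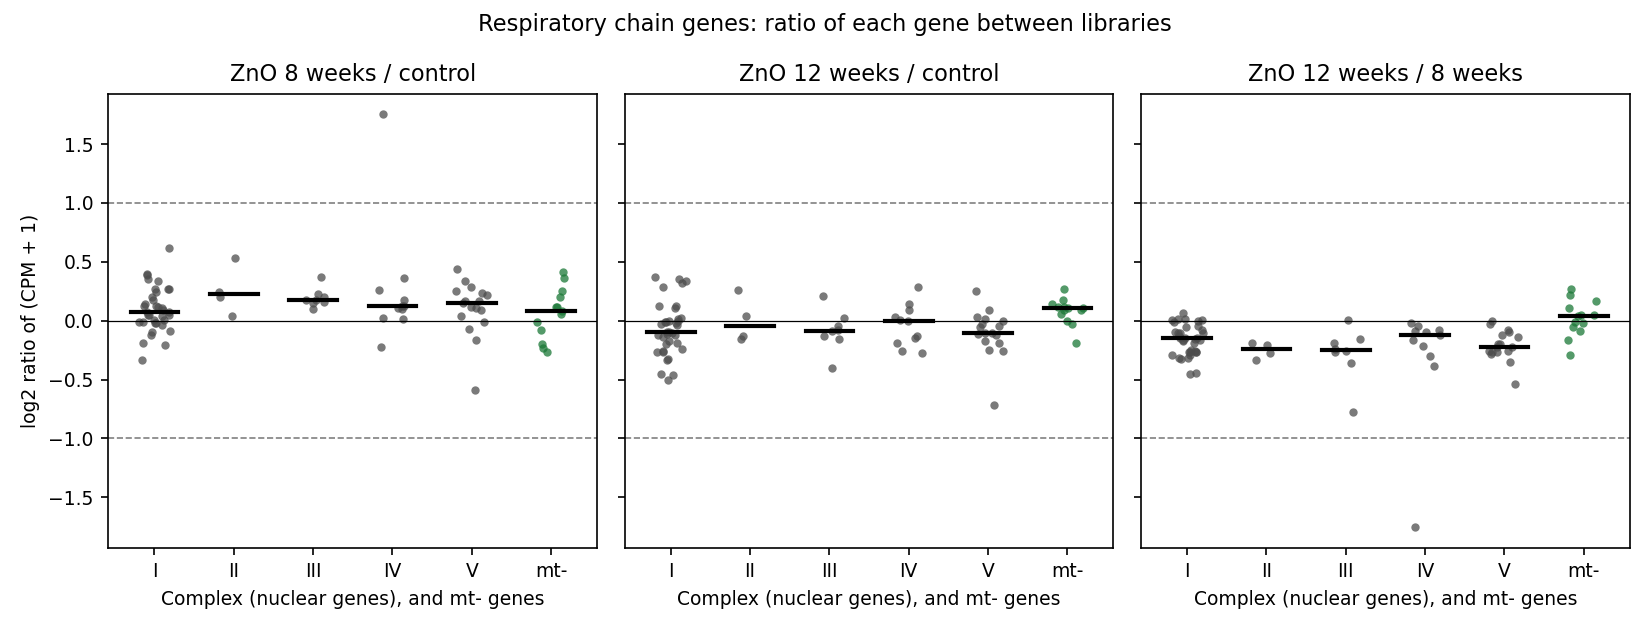
Log2 ratio of CPM + 1 for every nuclear and mitochondrially encoded gene that passed the filter, by complex, for each of the 3 comparisons between libraries, where each point is a gene. The nuclear genes of complexes II and III lie above 0 at 8 weeks against the control, and those of complexes IV and V lie below 0 at 12 weeks against 8 weeks.

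Counting error can be set against these small ratios, while the difference between animals cannot be measured with 1 library a group. At 8 weeks against the control, the counting interval lay above 0 for 38 nuclear genes and below 0 for 4 (Atp5d, Atp5s, Cox4i1 and Ndufs7), where 23.6% of all genes lay above 0 and 24.2% below. At 12 weeks against the control it lay above 0 for 10 genes and below 0 for 29, with a background of 21% above and 22.4% below. Between 12 and 8 weeks it lay above 0 for 0 genes and below 0 for 44, with a background of 19% above and 19.2% below. The 38 and the 44 include Cox6a2, which passed the filter through the 8-week library alone. Genes with more counts have narrower intervals, and the background was not matched for counts, so these shares are not a like comparison.

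**Figure D2:**
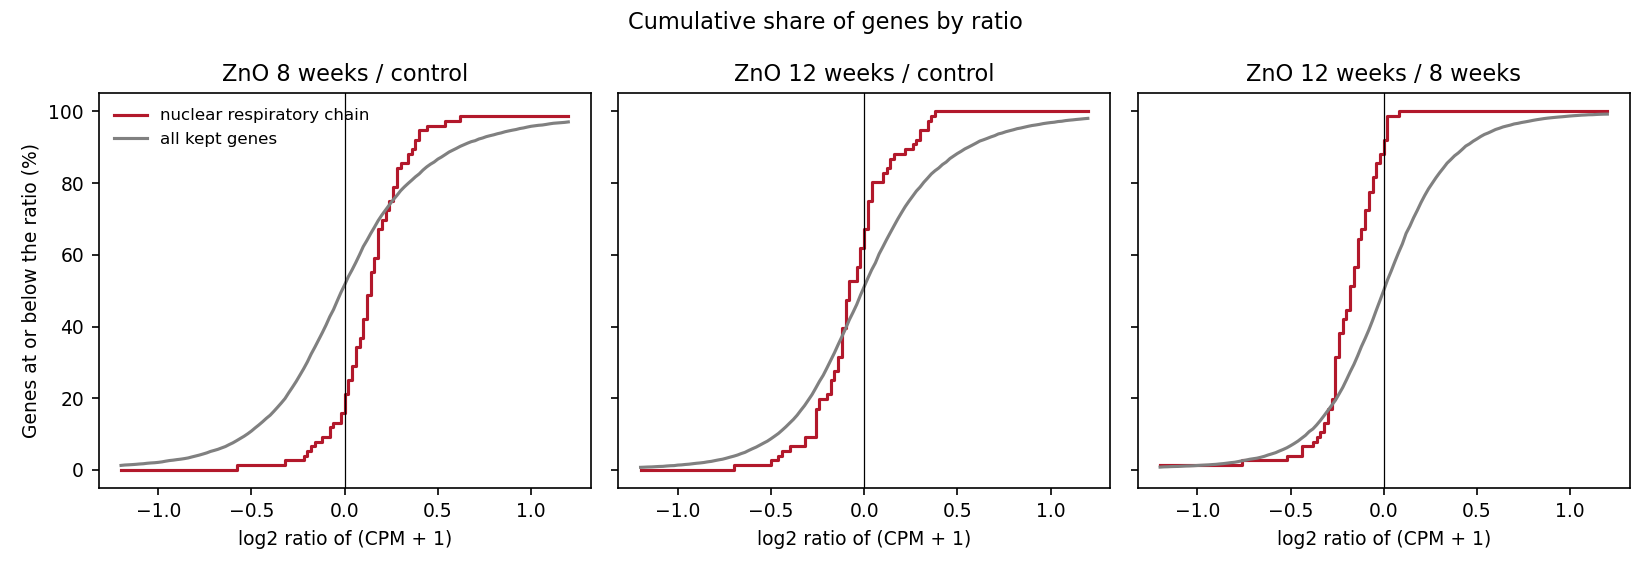
Percent of genes at or below each log2 ratio, for the 76 nuclear genes and for all 14585 genes that passed the filter, in each comparison. The median of the nuclear genes lies right of that of all genes at 8 weeks against the control (0.12 against -0.02) and left of it at 12 weeks against 8 weeks (-0.19 against -0.00), and the curves cross towards the ends, where the nuclear genes have fewer wide ratios.

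Complex I, the NADH dehydrogenase, has the most nuclear genes. At 8 weeks 25 of 36 were above the control (median log2 ratio 0.07), at 12 weeks 25 of 36 were below it (median -0.10), and 31 of 36 were lower at 12 than at 8 weeks (median -0.15). Per kilobase of the length given in the files, Ndufa6, an accessory subunit, had the highest level of the complex with a mean of 177 CPM per kb. Its counts corresponded to 84.5 CPM at 12 weeks, 106 CPM at 8 weeks and 107 CPM in the control. Only the 12-week library was low, with a log2 ratio of -0.33 against the control (interval -0.45 to -0.22) and -0.01 at 8 weeks (interval -0.12 to 0.09).

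The widest ratios in complex I belonged to genes of low or moderate level. Ndufc2, an accessory subunit of the membrane arm (chromosome 7, from 97400003 to 97407802, plus strand), had 18.8 CPM at 12 weeks, 22.8 CPM at 8 weeks and 14.5 CPM in the control. Both ZnO libraries were above the control, with log2 ratios of 0.35 at 12 weeks and 0.61 at 8 weeks. The 8-week value passed 1.5-fold, as did 10.6% of all genes in that direction. Ndufa13, also known as GRIM-19, an accessory subunit (chromosome 8, from 69894180 to 69902558, minus strand), had 62.4 CPM at 12 weeks, 61.7 CPM at 8 weeks and 48.1 CPM in the control. Its log2 ratio was 0.37 at 12 weeks and 0.35 at 8 weeks, so the ZnO libraries lay together. It shares 375 exon bases with Tssk6 on the opposite strand, but that gene had 7, 8 and 8 counts.

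In the other direction stood Ndufs7 and Ndufa3. Ndufs7, a core subunit that holds the last iron-sulfur cluster before coenzyme Q (chromosome 10, from 80249121 to 80256794, plus strand), had 21.3 CPM at 12 weeks, 23.4 CPM at 8 weeks and 29.8 CPM in the control. Its log2 ratio was -0.47 at 12 weeks (interval -0.71 to -0.26) and -0.34 at 8 weeks (interval -0.56 to -0.14). Ndufa3, a small accessory subunit, had 7.55 CPM at 12 weeks, 9.49 CPM at 8 weeks and 11.1 CPM in the control, on 100, 136 and 151 counts. Both genes were highest in the control, and the interval of Ndufa3 at 8 weeks spanned 0 (-0.57 to 0.11). Ndufa4 carries a complex I symbol and is counted here by that symbol, although it is now regarded as a subunit of complex IV.

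**Figure D3:**
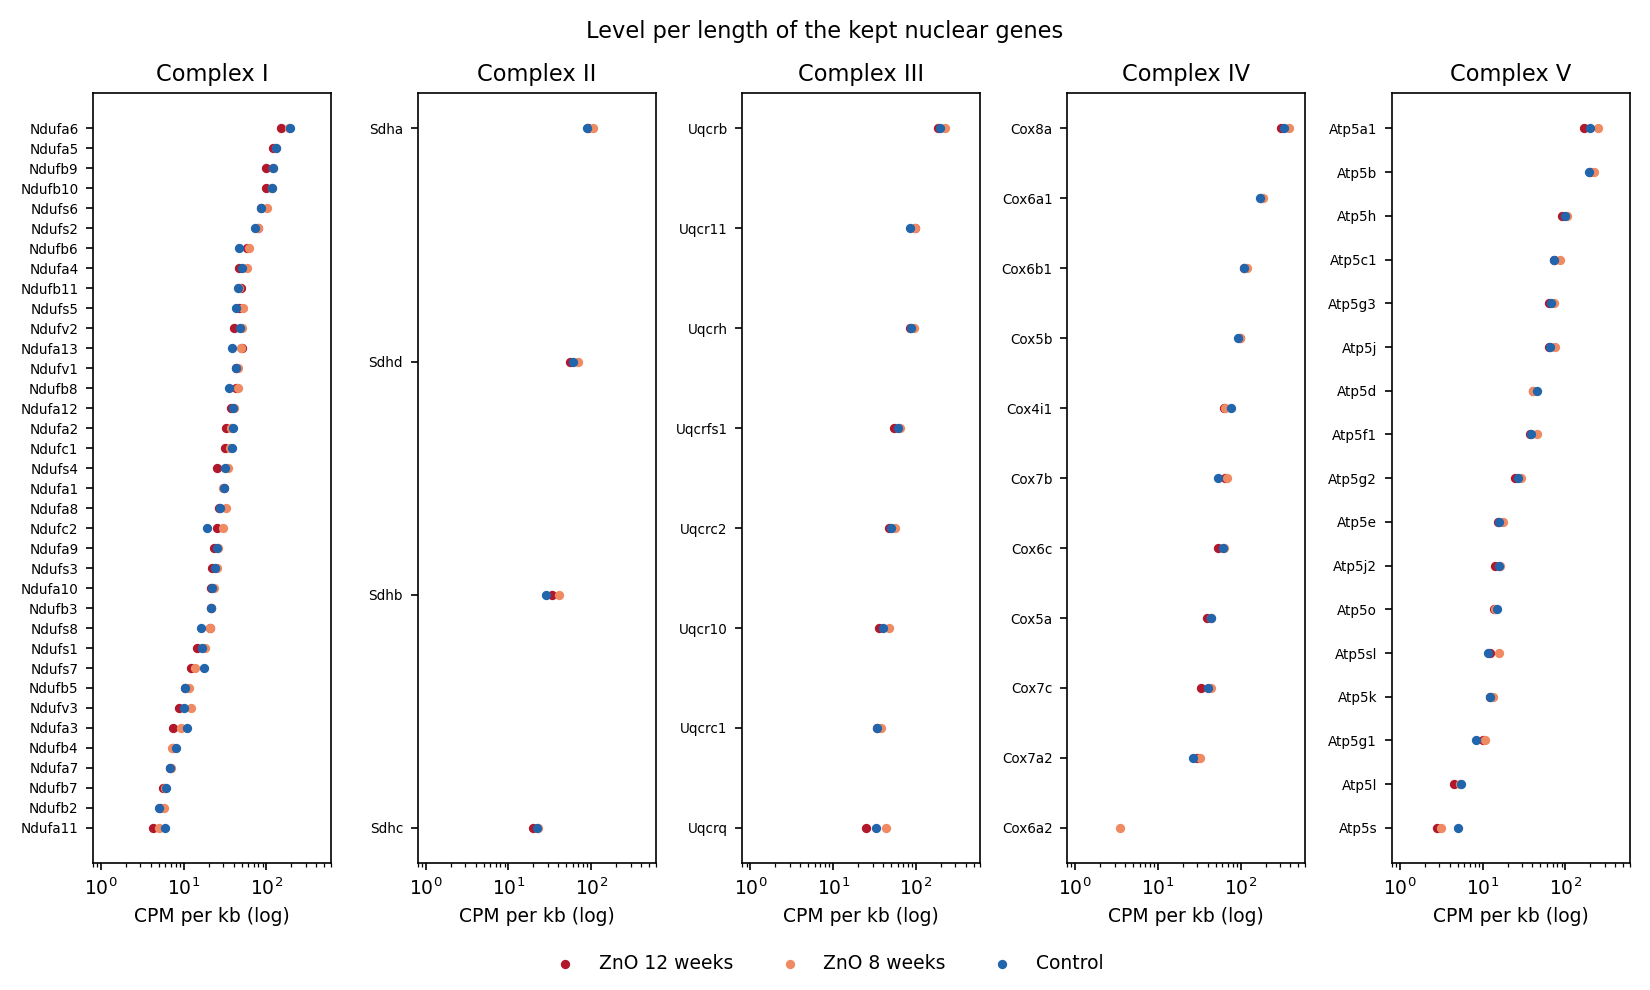
Level of each nuclear gene that passed the filter, in CPM per kilobase on a log axis, by complex, with 1 point each for the 12-week, 8-week and control libraries and genes ordered by their mean. Cox6a2 is drawn for the 8-week library only, since it had 0 counts in the others, and for nearly all genes the distance between libraries is small beside the distance between genes.

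Complex II, succinate dehydrogenase, is also an enzyme of the tricarboxylic acid cycle and has no mitochondrially encoded subunit. Its 4 genes were all above the control at 8 weeks (median log2 ratio 0.22) and all lower at 12 than at 8 weeks (median -0.24). Sdha, the flavoprotein that oxidises succinate, had the highest level per length of the 4 and reached 353 CPM at 12 weeks, 408 CPM at 8 weeks and 344 CPM in the control. Sdhb, the iron-sulfur subunit (chromosome 4, from 140961203 to 140979193, plus strand), had 75.5 CPM at 12 weeks, 91.4 CPM at 8 weeks and 62.8 CPM in the control. The log2 ratio of Sdhb was 0.26 at 12 weeks and 0.53 at 8 weeks, the widest of the complex. Sdhc and Sdhd are the membrane anchors that bind coenzyme Q, and both lay below the control at 12 weeks and above it at 8 weeks. Sdhc had 64.8 CPM at 12 weeks, 74.1 CPM at 8 weeks and 72.1 CPM in the control, with log2 ratios of -0.15 and 0.04. Sdhd had 67.7 CPM at 12 weeks, 85.5 CPM at 8 weeks and 74.3 CPM in the control, with log2 ratios of -0.13 and 0.20.

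Complex III, the cytochrome bc1 complex, had 8 of 8 nuclear genes above the control at 8 weeks (median log2 ratio 0.18) and 6 of 8 below it at 12 weeks (median -0.09). Between 12 and 8 weeks 7 of 8 were lower (median -0.25). Uqcrb, the subunit that lines the site where coenzyme Q is reduced, had the highest level per length, with 162 CPM at 12 weeks, 194 CPM at 8 weeks and 172 CPM in the control. Uqcrb shares 50 exon bases with Gm10767 on the opposite strand, which had 1080, 1364 and 1086 counts, so reads in those bases are uncertain. Uqcrfs1, the Rieske iron-sulfur protein, had the smallest ratio at 8 weeks, with 73.2 CPM at 12 weeks, 87.8 CPM at 8 weeks and 81.9 CPM in the control. Uqcr11, a small subunit, had 62.4 CPM at 12 weeks, 62.0 CPM at 8 weeks and 53.9 CPM in the control, and was the highest of the complex at 12 weeks against the control (log2 ratio 0.21).

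Uqcrq, a small subunit (chromosome 11, from 53427922 to 53430831, minus strand), had, with Cox6a2 left aside, the widest log2 ratio between any 2 libraries of the nuclear genes that passed the filter. It had 604 counts at 12 weeks, 1127 at 8 weeks and 823 in the control, which are 45.6, 78.7 and 60.7 CPM. The 8-week library was high and the 12-week library low, with the control between them. The log2 ratio was -0.40 at 12 weeks against the control, 0.37 at 8 weeks against the control and -0.77 between 12 and 8 weeks (interval -0.93 to -0.64). The last passed 1.5-fold, as did 4.73% of all genes in that direction. No other entry in the files shares exon bases with Uqcrq.

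Complex IV, cytochrome c oxidase, had 10 of 11 measured nuclear genes above the control at 8 weeks (median log2 ratio 0.12). At 12 weeks 5 were above and 5 below, with a median of 0.00, which is the value of Cox6a2 at 0 counts in both libraries. All 11 were lower at 12 than at 8 weeks (median -0.12), and without Cox6a2 69 of 75 nuclear genes over all complexes were lower. Cox8a, a small subunit of the liver form, had the highest level per length of all nuclear genes, with a mean of 341 CPM per kb. It had 167 CPM at 12 weeks, 207 CPM at 8 weeks and 183 CPM in the control. Cox7b, another small subunit, had 78.2 CPM at 12 weeks, 82.7 CPM at 8 weeks and 64.1 CPM in the control, and its log2 ratios of 0.28 and 0.36 were the highest of the complex apart from Cox6a2. Cox4i1, the subunit through which ATP slows the enzyme, had 97.9 CPM at 12 weeks, 101 CPM at 8 weeks and 118 CPM in the control, and its log2 ratios of -0.27 and -0.22 were the lowest. Cox4i1 shares 154 exon bases with Emc8 on the opposite strand, which had 898, 950 and 1011 counts.

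Several subunits of complex IV exist as a form found in liver and most tissues and a form of heart and skeletal muscle. Cox6a2, the muscle form of subunit VIa (chromosome 7, from 128205435 to 128206387, minus strand), had 0 counts at 12 weeks, 34 at 8 weeks and 0 in the control. Itgad on the opposite strand, which shares 70 of its exon bases, had 0 counts in every library. Its general partner Cox6a1 had 1622, 1871 and 1627 counts. Cox6a2 thus made up 1.78% of the pair at 8 weeks (exact binomial 95% interval 1.24% to 2.49%), and by a floor of 3 counts, a count of 0 allows up to 0.185% at 12 weeks and 0.184% in the control. The exact intervals end at 0.227% and 0.226% there. Against the same floor per library, Cox6a2 was at least 10.7-fold higher at 8 weeks than in the control and at least 10.5-fold higher than at 12 weeks, bounds that take the 34 counts as they stand. The exact interval of the log2 ratio, which covers their counting error too, begins at 3.05 against the control and ends at -3.01 for 12 against 8 weeks. Both ends are smaller folds than the floor gives.

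The other muscle forms were scarce but lay in the same library. Cox7a1 had 3 counts at 12 weeks, 13 at 8 weeks and 0 in the control, beside 370, 436 and 342 counts of Cox7a2. That is 2.90% of the pair at 8 weeks (interval 1.55% to 4.90%). By the same floor, with the 13 counts taken as they stand, it is at least 4.10-fold more than in the control. The exact interval of the log2 ratio begins at 1.53, a smaller fold than the floor gives. Cox8b had 0 counts at 12 weeks, 3 at 8 weeks and 0 in the control, beside 2218, 2960 and 2484 counts of Cox8a. The skeletal muscle markers given above were high in this same library, with 3452 counts at 8 weeks, 31 at 12 weeks and 33 in the control. Their part in the level of Cox6a2 was not tested. Of the 7 tissue-restricted isoforms only Cox6a2 had passed the filter, so leaving them out kept 75 nuclear genes. The median of those was 0.12 for 8 weeks and -0.09 for 12 weeks against the control, as before. The loss of a single gene can hardly move a median. The part of muscle in the level of the other nuclear genes was not tested.

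Forms restricted to other tissues had 5 counts or fewer in each library. Cox4i2, a form known from lung, had 0 counts at 12 weeks, 1 at 8 weeks and 2 in the control, beside 1297, 1450 and 1607 counts of Cox4i1. Cox6b2, a testis form, had 1 count at 12 weeks, 2 at 8 weeks and 5 in the control, beside 1044, 1205 and 1066 counts of Cox6b1. Cox7b2 and Cox8c, both known from testis, had 0 counts in every library. A difference in these 4 genes was not detectable at this depth.

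**Figure D4:**
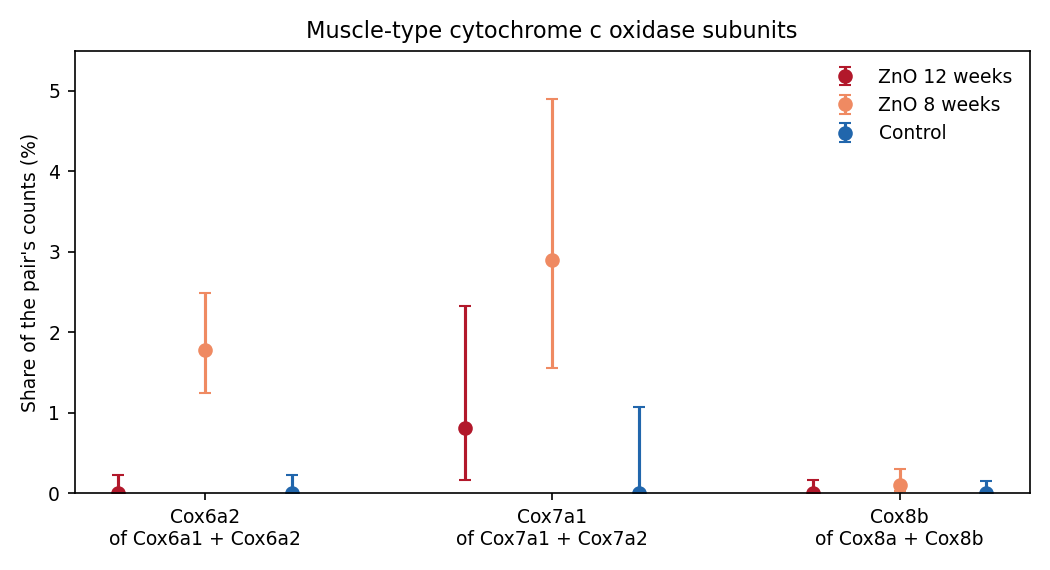
Share of the muscle forms Cox6a2, Cox7a1 and Cox8b in the counts of their isoform pairs, in percent, for the 12-week, 8-week and control libraries. Bars are exact binomial 95% intervals that cover counting error only, and the other tissue-restricted forms are not drawn. Cox6a2 and Cox7a1 reach 1.78% and 2.90% at 8 weeks, while Cox6a2 is at 0 in the other libraries.

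Complex V had 13 of 17 nuclear genes above the control at 8 weeks (median log2 ratio 0.15) and 12 of 17 below it at 12 weeks (median -0.10). All 17 were lower at 12 than at 8 weeks (median -0.22). Atp5a1, the alpha subunit of the catalytic head, had the highest mean level per length of the complex, 206 CPM per kb against 204 for Atp5b, although Atp5b was the higher at 12 weeks (199 against 170 CPM per kb). It had 532 CPM at 12 weeks, 771 CPM at 8 weeks and 631 CPM in the control. Its order of libraries was that of Uqcrq, with a log2 ratio of -0.25 at 12 weeks (interval -0.29 to -0.20), 0.29 at 8 weeks (interval 0.25 to 0.33) and -0.54 between 12 and 8 weeks. Atp5b, the catalytic beta subunit that pairs with it in the same head, had 841 CPM at 12 weeks, 927 CPM at 8 weeks and 824 CPM in the control. The log2 ratios of Atp5b were smaller, 0.03 at 12 weeks and 0.17 at 8 weeks.

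The rotor ring of complex V is built from identical c subunits that Atp5g1, Atp5g2 and Atp5g3 encode with different targeting sequences. Atp5g3 had the most of the 3 per length, and its level was 137 CPM at 12 weeks, 160 CPM at 8 weeks and 148 CPM in the control. Atp5g2 had 40.9 CPM at 12 weeks, 49.3 CPM at 8 weeks and 44.4 CPM in the control. Both were lowest at 12 weeks. Atp5g1 was lowest in the control, with 49.1 CPM at 12 weeks, 51.9 CPM at 8 weeks and 41.0 CPM in the control, and its log2 ratios were 0.25 at 12 weeks and 0.33 at 8 weeks.

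The symbol pattern also took Atp5s and Atp5sl, which are relatives by name and not structural subunits. Atp5s, a coupling factor now called Dmac2l, had 55 counts at 12 weeks, 66 at 8 weeks and 101 in the control, which are 4.15, 4.61 and 7.44 CPM. Both ZnO libraries were below the control by over 1.5-fold, with log2 ratios of -0.71 at 12 weeks (interval -1.34 to -0.35) and -0.59 at 8 weeks (interval -1.16 to -0.23). In that direction 6.22% of all genes passed 1.5-fold at 12 weeks and 7.97% at 8 weeks. Atp5sl, a complex I assembly protein now called Dmac2, had 37.6 CPM at 12 weeks, 48.2 CPM at 8 weeks and 35.3 CPM in the control. The log2 ratio of Atp5sl at 8 weeks, 0.44, was the highest of those with a complex V symbol.

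Exon bases were shared with another entry by 24 of the 82 nuclear genes, and the use of strand in the counting is not stated, so their counts are uncertain to that extent.

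The start sites of the nuclear genes were read for motifs of factors known to act on respiratory genes. RefSeq promoters (GRCm38.p6, 250 bases before to 50 after the start) were found for 68 of the 82 genes. The NRF1 motif, the first run in capitals in the Cox6a1 promoter printed here, stood in 5 of 68 (7.35%), against 1.07% of the promoters of 27025 genes. The ETS motif CCGGAAG, the kind bound by GABP, stood in 16 (23.5%), against 9.93% of all genes, and the YY1 motif ATGGCGG in 11 (16.2%), against 4.69%. The E-box CAGCTG, which is not a motif of that group, stood in 6 (8.82%), against 18.3%. Both strands were searched for exact letters, and no motif overlaps another within the letters searched. A match describes these letters and is not a binding site. The promoter of Cox6a1 (GRCm38.p6, chr5:115348909-115349208, minus strand) is shown because it holds an NRF1 motif and, read on the other strand, an ETS motif, and that of Sdhb (GRCm38.p6, chr4:140961021-140961320, plus strand) because that gene had the widest ratio of complex II and holds an ETS motif. Capitals mark the motifs.
Cox6a1: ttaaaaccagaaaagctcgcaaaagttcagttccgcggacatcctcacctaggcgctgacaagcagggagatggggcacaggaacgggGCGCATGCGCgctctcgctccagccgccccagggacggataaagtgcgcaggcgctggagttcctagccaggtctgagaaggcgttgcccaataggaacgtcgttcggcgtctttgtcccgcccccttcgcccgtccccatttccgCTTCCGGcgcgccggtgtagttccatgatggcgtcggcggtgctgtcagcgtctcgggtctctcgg
Sdhb: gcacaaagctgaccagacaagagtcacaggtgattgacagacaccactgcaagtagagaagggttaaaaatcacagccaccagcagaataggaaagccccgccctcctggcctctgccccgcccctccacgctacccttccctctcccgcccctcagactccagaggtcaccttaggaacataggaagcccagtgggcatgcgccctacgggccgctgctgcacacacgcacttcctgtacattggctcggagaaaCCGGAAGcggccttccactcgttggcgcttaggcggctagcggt

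Of the 13 mitochondrially encoded genes, 8 had a mean level per length above that of every nuclear gene, and mt-Atp6, mt-Atp8, mt-Co2, mt-Co3 and mt-Nd3 did not. The 13 rows took 9.82% of all counts at 12 weeks, 9.40% at 8 weeks and 9.58% in the control, with exact binomial 95% intervals of 9.81% to 9.84%, 9.38% to 9.42% and 9.57% to 9.60%. With the 7 matching chromosome 1 rows described below added, the shares were 12.16%, 11.80% and 11.78%. The 8-week library then no longer lay below the control, and the intervals of these libraries overlapped (11.78% to 11.81% and 11.76% to 11.80%). All 13 genes passed the filter and none passed 1.5-fold or 2-fold in any comparison. At 8 weeks 8 of 13 were above the control (median log2 ratio 0.08), and at 12 weeks 11 of 13 were (median 0.11), where 48.4% and 48.9% of all genes were above 0. Between 12 and 8 weeks 7 of 13 were higher and 6 lower (median 0.04). Their median at 12 weeks against the control thus had the opposite sign to that of the nuclear genes (0.11 and -0.09), and the difference between the groups of genes was not tested.

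The mitochondrially encoded rows cannot all be read as deposited, because chromosome 1 of the mouse carries a stretch of mitochondrial DNA (an inserted nuclear copy) that the annotation divides into pseudogene entries. In GENCODE M21 transcripts (GRCm38), 7 such entries between 24611535 and 24616197 on the minus strand of chromosome 1 matched a mitochondrial gene, 5 of them base for base over the aligned length. Gm10925 equals mt-Atp6 over 678 of 678 bases, Gm28661 equals mt-Co2 over 681 of 681, Gm28437 equals mt-Co3 over 783 of 783, Gm10222 equals mt-Nd4l over 294 of 294 and Gm28439 equals mt-Nd4 over 876 of 876. Gm28438 matches mt-Nd3 over 344 of 345 bases, and Gm29216 matches the end of mt-Co1 over 482 of 483. The first 60 aligned bases are shown for an identical pair and for both pairs with a substitution. A short read from the aligned bases of the identical pair fits both rows. In the other pairs, such a read tells the rows apart only where it covers the base that differs. Capitals mark the base that differs. It is T3C in mt-Nd3 and A1066T in mt-Co1, with the mitochondrial base first and positions counted from 1 at the first base of the mitochondrial transcript. Coordinates are GRCm38: chrM:7927-7986 (plus strand) and chr1:24614592-24614651 (minus strand) for the first pair, chrM:9459-9518 and chr1:24613060-24613119 for the next, and chrM:6390-6449 and chr1:24616129-24616188 for the last.
mt-Atp6: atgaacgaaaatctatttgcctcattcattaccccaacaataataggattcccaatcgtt
Gm10925: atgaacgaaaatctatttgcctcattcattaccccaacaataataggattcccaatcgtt
mt-Nd3: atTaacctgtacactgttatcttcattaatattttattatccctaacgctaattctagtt
Gm28438: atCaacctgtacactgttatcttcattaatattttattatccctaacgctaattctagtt
mt-Co1: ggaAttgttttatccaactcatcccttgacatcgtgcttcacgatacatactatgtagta
Gm29216: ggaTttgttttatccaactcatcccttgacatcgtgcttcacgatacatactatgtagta

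For 4 of the 7 pairs most counts stood on the chromosome 1 row in every library. Gm10925 had 228463 counts at 12 weeks, 247319 at 8 weeks and 217201 in the control, where mt-Atp6, a membrane subunit of complex V, had 1456, 1639 and 1435. The pseudogene row thus held 99.4%, 99.3% and 99.3% of the pair. Gm28661 had 32491, 37623 and 32600 counts beside 208, 279 and 195 for mt-Co2, the subunit that receives electrons from cytochrome c. Gm28437 had 21492, 24119 and 22490 counts beside 100, 109 and 94 for mt-Co3, the third core subunit of complex IV. Gm28438 had 3594, 3797 and 3012 counts beside 617, 649 and 581 for mt-Nd3, a complex I subunit.

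The other 3 pairs stood the opposite way. Gm10222 had 1115 counts at 12 weeks, 1057 at 8 weeks and 844 in the control, against 14595, 15230 and 13855 for mt-Nd4l. Gm28439 had 742, 783 and 867 counts, against 176288, 177506 and 169843 for mt-Nd4, its pair over part of the gene. Gm29216 had 21941, 26978 and 22355 counts, against 248088, 301222 and 239234 for mt-Co1, the catalytic subunit of complex IV. Over the pair, the pseudogene row held 8.13% at 12 weeks, 8.22% at 8 weeks and 8.55% in the control. Rows on chromosome 2 also share windows of 50 bases with these genes. Gm13341 shares 224 windows with mt-Co2 and had 264 counts at 12 weeks, 306 at 8 weeks and 252 in the control, more than the mt-Co2 row in each library. Gm13340 shares 411 windows with mt-Co1 and had 788, 1009 and 811 counts. The chromosome 2 rows are not part of the sums given here. How the authors' counting placed a read that fits both rows is not given in the sources used here.

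**Figure D5:**
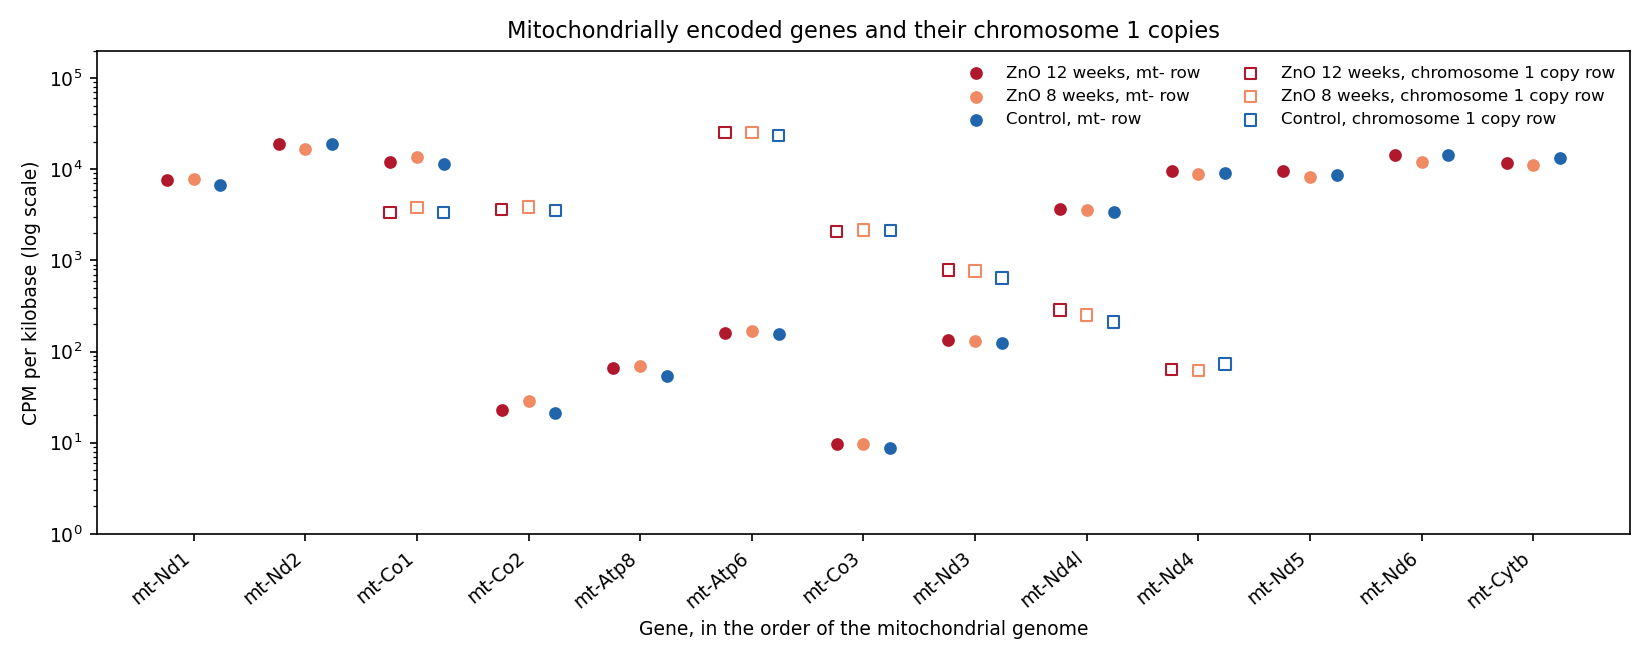
Level of each mitochondrially encoded gene (and of the pseudogene row on chromosome 1 that matches it, where there is one) for the 12-week, 8-week and control libraries. The log axis is in CPM per kilobase, with each row scaled by its own length. For mt-Atp6, mt-Co2, mt-Co3 and mt-Nd3 the pseudogene row lies above the mitochondrial row in every library, and the 3 libraries lie close together in each row.

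The share of each gene that other transcripts contain follows from the sequence. Of all windows of 50 bases in the mitochondrial transcript, 100% were found in other annotated transcripts for mt-Co2, 99.9% for mt-Co3, 99.5% for mt-Atp6, 98.8% for mt-Nd4l and 98.0% for mt-Nd3. The share was 62.2% for mt-Nd4, 51.1% for mt-Co1, 8.19% for mt-Nd2 and 7.61% for mt-Nd5. It was 0% for mt-Cytb, mt-Nd1, mt-Nd6 and mt-Atp8. Only annotated transcripts were searched. The mt-Atp8 gene lies next to mt-Co2 and mt-Atp6, which both have a matching entry on chromosome 1. A copy of mt-Atp8 outside the annotated entries would not have been found. Where a chromosome 1 row matches a gene, values are given as deposited and as the sum of the pair.

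As deposited, the order of mean levels per length was mt-Nd2 (18198 CPM per kb), mt-Nd6 (13604), mt-Co1 (12381), mt-Cytb (12019), mt-Nd4 (9244), mt-Nd5 (8822), mt-Nd1 (7427) and mt-Nd4l (3576). Far below them came mt-Atp6 (162), mt-Nd3 (129), mt-Atp8 (63.0), mt-Co2 (24.2) and mt-Co3 (9.39). With the pseudogene row added, mt-Atp6 had 24889 CPM per kb and stood above every deposited row, mt-Co2 had 3670, mt-Co3 2120 and mt-Nd3 855. Neighbours in the deposited order can change places between libraries. The level of mt-Co1 was 12124 CPM per kb at 12 weeks, 13607 at 8 weeks and 11412 in the control, and that of mt-Cytb was 11593, 11239 and 13224 CPM per kb, so mt-Cytb was the higher in the control and mt-Co1 in both ZnO libraries.

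The complex I genes of mitochondrial DNA fell on both sides of the control. At 8 weeks 3 of 7 were above it (median log2 ratio -0.01), at 12 weeks 6 of 7 were (median 0.11), and 6 of 7 were higher at 12 than at 8 weeks (median 0.10). The level of mt-Nd1 was 7351 CPM at 12 weeks, 7465 CPM at 8 weeks and 6505 CPM in the control, with both ZnO libraries above the control (log2 ratios 0.18 and 0.20). The level of mt-Nd2 was 19490 CPM at 12 weeks, 17327 CPM at 8 weeks and 19853 CPM in the control. The 8-week library was the lowest (log2 ratio -0.20), and the 12-week library lay slightly below the control (log2 ratio -0.03). The 8-week library was also the low one for mt-Nd6, with 7485 CPM at 12 weeks, 6216 CPM at 8 weeks and 7481 CPM in the control (log2 ratio 0.00 at 12 weeks and -0.27 at 8 weeks). This gene is the only member read from the other strand of mitochondrial DNA, and without strand in the counting, reads of the opposite transcript cannot be told apart from its own.

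Of the remaining complex I rows, mt-Nd5 had 17436 CPM at 12 weeks, 15004 CPM at 8 weeks and 15835 CPM in the control (log2 ratio 0.14 at 12 weeks and -0.08 at 8 weeks). The row of mt-Nd4 had 13311 CPM at 12 weeks, 12389 CPM at 8 weeks and 12517 CPM in the control. With Gm28439 its log2 ratios were 0.09 at 12 weeks and -0.02 at 8 weeks, close to those of the row alone (0.09 and -0.01). The row of mt-Nd4l had 1102 CPM at 12 weeks, 1063 CPM at 8 weeks and 1021 CPM in the control, with log2 ratios of 0.11 and 0.06 alone and of 0.13 and 0.07 with Gm10222. The row of mt-Nd3 had 46.6 CPM at 12 weeks, 45.3 CPM at 8 weeks and 42.8 CPM in the control, with log2 ratios of 0.12 and 0.08 alone and of 0.26 and 0.23 with Gm28438.

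For complex III, mt-Cytb, the cytochrome b that both coenzyme Q sites belong to, had 13262 CPM at 12 weeks, 12858 CPM at 8 weeks and 15128 CPM in the control. Beside mt-Nd2 it was the mitochondrial gene below the control in both ZnO libraries, with log2 ratios of -0.19 at 12 weeks (interval -0.20 to -0.18) and -0.23 at 8 weeks (interval -0.24 to -0.23). No annotated transcript shares a 50-base window with it. Its nuclear partners in complex III had a median of -0.09 at 12 weeks and 0.18 at 8 weeks.

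In complex IV, mt-Co1 had 18732 CPM at 12 weeks, 21023 CPM at 8 weeks and 17631 CPM in the control, with log2 ratios of 0.09 and 0.25. Adding Gm29216 left them at 0.08 and 0.25. The row of mt-Co2 had 15.7 CPM at 12 weeks, 19.5 CPM at 8 weeks and 14.4 CPM in the control. Alone it gave log2 ratios of 0.12 and 0.41, and the sum with Gm28661 gave 0.03 and 0.13. The row of mt-Co3 had 7.55 CPM at 12 weeks, 7.61 CPM at 8 weeks and 6.93 CPM in the control. Alone it gave 0.11 and 0.12, and the sum with Gm28437 gave -0.03 and 0.02, so its sign at 12 weeks depended on the pseudogene row.

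In complex V, mt-Atp6 had 110 CPM at 12 weeks, 114 CPM at 8 weeks and 106 CPM in the control, and with Gm10925 it had 17360, 17376 and 16113 CPM. The log2 ratios of the sum were 0.11 at 12 weeks and 0.11 at 8 weeks, and those of the row alone 0.06 and 0.11. The row of mt-Atp8, a short gene that overlaps mt-Atp6, had 13.4 CPM at 12 weeks, 14.3 CPM at 8 weeks and 10.9 CPM in the control. Its log2 ratio of 0.27 at 12 weeks had a counting interval that spanned 0 (-0.03 to 0.62), and at 8 weeks it was 0.36 (interval 0.08 to 0.71). Reads placed on an unannotated copy of mt-Atp8, if there is one, are not part of this row.

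The genes around the chain were described from lists of the same pathway. Each count can be read against all genes, of which 48.9% at 12 weeks and 48.4% at 8 weeks were above the control, 3.11% and 4.15% were called higher and 1.34% and 2.1% lower. Of 16 complex I assembly factors measured, 10 were above the control at 12 weeks and 11 at 8 weeks (medians 0.05 and 0.14), and 0 passed 2-fold. Ndufaf4 had 48.2 CPM at 12 weeks, 57.2 CPM at 8 weeks and 41.9 CPM in the control. Of 31 assembly factors of complexes II to V, 12 were above the control at 12 weeks and 14 at 8 weeks (medians -0.15 and -0.05), and 1 was called at 2-fold. That was Sco2, a copper chaperone of complex IV, with 38.1 CPM at 12 weeks, 30.6 CPM at 8 weeks and 69.3 CPM in the control. Both ZnO libraries were lower, with log2 ratios of -0.84 at 12 weeks (interval -1.02 to -0.70) and -1.15 at 8 weeks (interval -1.34 to -1.01).

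Subunits and close relatives whose symbols fall outside the pattern numbered 6, of which 5 were above the control at 8 weeks (median 0.22) and 0 passed 2-fold. Cyc1, the cytochrome c1 of complex III, had 76.9 CPM at 12 weeks, 77.0 CPM at 8 weeks and 70.5 CPM in the control. Ndufab1, the acyl carrier protein that is also a complex I subunit, was the most abundant, with 153 CPM at 12 weeks, 156 CPM at 8 weeks and 165 CPM in the control, and the one below the control at 8 weeks (log2 ratio -0.09). Atpif1, the inhibitor of ATP synthase, named after its values were seen, had 100 counts at 12 weeks, 131 at 8 weeks and 58 in the control, with log2 ratios of 0.70 and 0.94. Among 19 genes of electron carriers and coenzyme Q synthesis, 16 were below the control at 12 weeks (median -0.22) and 10 at 8 weeks (median -0.09). The gene called there was Coq10b, a coenzyme Q binding protein, with 55.9 CPM at 12 weeks, 74.7 CPM at 8 weeks and 20.05 CPM in the control. Both ZnO libraries were above 2-fold, with log2 ratios of 1.43 and 1.85.

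For the expression of mitochondrial DNA, 26 genes were measured, 0 passed 2-fold and the medians were -0.07 at 12 weeks and -0.10 at 8 weeks. Lrpprc, which stabilises mitochondrial messenger RNA, had 138 CPM at 12 weeks, 147 CPM at 8 weeks and 150 CPM in the control. Among 15 regulators of mitochondrial biogenesis, with medians of -0.14 at 12 weeks and 0.10 at 8 weeks, Ppargc1a was called higher at 8 weeks. This coactivator of respiratory genes had 30.2 CPM at 12 weeks, 53.5 CPM at 8 weeks and 15.4 CPM in the control.

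The 18 genes listed for the tricarboxylic acid cycle, which feeds the chain with NADH and succinate, were described in the same way. The list also holds the pyruvate dehydrogenase genes Pdha1, Pdhb, Dlat and Pdhx. Of these, 12 were above the control at 8 weeks (median 0.10), 12 below it at 12 weeks (median -0.15) and 15 lower at 12 than at 8 weeks (median -0.21), with 0 called at 2-fold. Dld, the most abundant of the list, had 294 CPM at 12 weeks, 338 CPM at 8 weeks and 310 CPM in the control. It was below the control at 12 weeks. Pdha1, a subunit of pyruvate dehydrogenase, had 246 CPM at 12 weeks, 280 CPM at 8 weeks and 220 CPM in the control. Both ZnO libraries were thus above the control for Pdha1, which is among the 6 genes above it at 12 weeks. Genes of mitochondrial import, carriers and chaperones had medians of -0.10 at 12 weeks and -0.06 at 8 weeks over 21 genes. Slc25a4, the ADP/ATP carrier of heart and skeletal muscle, was the gene called there, with 54 counts at 12 weeks, 161 at 8 weeks and 39 in the control. Its general counterpart Slc25a5 had 1440, 1859 and 1411 counts, so that Slc25a4 made up 3.61%, 7.97% and 2.69% of the pair and was highest in the library with the muscle markers.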

How the data were processed

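The data are 3 liver RNA-seq libraries, 1 per group. The authors deposited raw estimated counts (expected counts) for each gene, as the headers and values show. Of the values above 0, 71.5% at 12 weeks, 70.2% at 8 weeks and 70.4% in the control were whole within 0.005. Per the submitters' processing notes, Cufflinks 2.2.1.0 and TopHat2 2.1.0 were used, and mm10 and mm9 are both listed as builds. Which program counted reads, and how it treated strand and reads with several matches, is not given in the sources used here, which bears on overlapping genes and on the mitochondrial rows.

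Counts were rounded, and libraries were scaled with edgeR 4.0.16 under R 4.3.3. The TMM factors were 0.999 at 12 weeks, 1.00 at 8 weeks and 0.997 in the control. Genes with 1 CPM in at least 1 library were kept, and 1 CPM was added before the log2 ratio, which understates the change of low genes. Intervals are Clopper-Pearson, and cover counting error only, since each group is 1 library. They treat each count as independent, while no molecular identifiers separate amplified reads from molecules, so they may be too narrow even for counting error. The code for the calls and intervals was run on simulated counts with large known changes and counting error only. Such counts hold no difference between animals, so that run does not bear on the small ratios given here. Coordinates are those of the files. All 95 genes were found in GENCODE M21 (GRCm38), 79 with the same start and end. Mitochondrial copies were sought among GENCODE M21 transcripts by shared 50-base windows and aligned, and promoters came from RefSeq. Tools were Python 3.11.15, numpy 2.4.6, pandas 2.3.3, scipy 1.17.1 and Biopython 1.88.

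The genes, pathway lists and marker lists were chosen with earlier results of these data known. Values in every library are printed for genes past 1.5-fold that reached 5 CPM in either library compared, for the highest per length and the highest and lowest ratios of each complex, for all mitochondrial genes and for tissue isoform sets. From the pathway lists, genes past 2-fold were taken, or else 1 or both of the most abundant. Alternatives were other scalings (DESeq2 1.42.0 size factors among them), pseudocounts, filters, thresholds and sets of rows.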

Additional observations from a re-analysis of the deposited data

How the results depend on the processing

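No paired analysis was possible because each group is 1 library, and no library could be left out of a group. Over the alternatives run, the medians of the nuclear genes, of the 13 mitochondrial genes and of each complex kept their sign, with 2 exceptions. Nuclear complex IV at 12 weeks against the control was 0.00 and became -0.06 without tissue isoforms and 0.03 without genes that share exon bases. Mitochondrial complex I at 8 weeks against the control was -0.01 and became -0.00069 under DESeq2 size factors and 5e-05 under upper-quartile factors. The nuclear median stayed within 0.12 to 0.14 at 8 weeks against the control, -0.09 to -0.07 at 12 weeks against the control and -0.20 to -0.18 between 12 and 8 weeks. The median of the mitochondrial genes at 8 weeks against the control was 0.0932 under DESeq2 size factors and 0.0939 under upper-quartile factors. At 12 weeks against the control it was 0.0886 with 5 CPM added and 0.0874 with the chromosome 1 rows added, an alternative chosen after seeing the data, and between 12 and 8 weeks it was 0.0260 under upper-quartile factors. Those factors left 3 nuclear genes higher at 12 than at 8 weeks and gave medians between 12 and 8 weeks of 0.0896 for mitochondrial complex I and 0.0307 for mt-Cytb. For mt-Cytb at 8 weeks against the control, DESeq2 factors gave -0.220, no scaling -0.223 and upper-quartile factors -0.220. With the chromosome 1 rows, mitochondrial complex I at 12 weeks against the control was 0.131, and mitochondrial complex IV at 8 weeks was 0.13, against 0.25 without them.

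The count of nuclear genes at least 2-fold higher at 8 weeks than in the control was 2 with totals and TMM taken without the mitochondrial genes and 2 at 1.5-fold. Under that scaling the gene beside Cox6a2 was Cox7a1, another muscle form. On 13 counts at 8 weeks and 0 in the control, Cox7a1 then just passed the filter through the 8-week library alone. The count of higher genes was 0 with 5 CPM added, with the filter on the mean, with the filter at 5 CPM, without tissue isoforms and without genes that share exon bases. The count at least 2-fold lower at 12 than at 8 weeks was 0 under the same 5 alternatives and 2 at 1.5-fold. At 1.5-fold, 1 gene was lower at 8 weeks and 1 at 12 weeks than in the control. Without genes that share exon bases, also chosen after seeing the data, fewer genes were counted, with 10 below the control at 8 weeks and 33 at 12 weeks. Relative to counts outside the mitochondrial rows, the 13 genes took 10.9% at 12 weeks, 10.4% at 8 weeks and 10.6% in the control. With the chromosome 1 rows they took 12.16%, 11.80% and 11.78% of all counts, so the order of the 8-week library and the control was not kept. Counted once for each alternative, 786 other summary values stayed the same. For values of single genes, counted in that way, 1839 stayed the same and 33 moved. A ratio was taken as the same if it moved no further than a counting interval reaches to a side. A count of genes was taken as the same within 1.5-fold. Signs changed for genes near 0 and for mt-Co3 at 12 weeks against the control (-0.03 with Gm28437). Depth limits the isoforms with fewer than 3 counts.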
